A study of Mus musculus with 14 samples.

Results

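This account covers 10 genes of neutrophils and of the signals that draw them in: the chemokine genes Cxcl1, Cxcl2 and Cxcl5, their receptor gene Cxcr2, the neutrophil receptor and surface genes Csf3r and Ly6g, the calgranulin genes S100a8 and S100a9, the lipocalin gene Lcn2 and the cytokine gene Il1b. They were taken by symbol from the 29923 genes of the deposited expression table. All 10 were in the table, and 6 of them (Cxcl1, Csf3r, S100a8, S100a9, Lcn2 and Il1b) reached 1 TPM (a relative transcript abundance scaled to transcript length and library total) in at least 3 tumours and entered the test across 13466 genes. Cxcl2, Cxcl5, Cxcr2 and Ly6g did not, and Csf3r did so through exactly 3 tumours.

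The RNA came from bulk hepatocellular carcinomas of C57BL/6 mice, started by injecting plasmids under pressure into the tail vein, with the SB100 transposase (Sleeping Beauty) to insert them. The Luc tumours were made with a plasmid for MYC and luciferase (MYC-Luc), and the LucOS tumours with MYC-LucOS, which also carries the OVA, SIN and SIY antigens. Each was combined with PKT2/CLP-Aoah, a plasmid for acyloxyacyl hydrolase, an enzyme that removes fatty acyl chains from bacterial lipopolysaccharide, or with the empty vector. The sets were Luc with vector (n = 4), Luc with Aoah (n = 4), LucOS with vector (n = 3) and LucOS with Aoah (n = 3). Every tumour shares the MYC driver and the transposase. The series text also names a plasmid for an N-terminally truncated CTNNB1 (beta-catenin) without assigning it to tumours, and an anti-PD1 protocol that no label ties to these samples. Neither age nor sex is given, and nothing says that each numbered tumour came from its own mouse, so the p-values measure the spread between these samples, which may be partly technical.

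Cxcl1, Cxcl2 and Cxcl5 encode secreted chemokines that bind CXCR2 on neutrophils and lead them out of the blood toward the tissue that makes them. Csf3r encodes the receptor of G-CSF, the growth factor that drives neutrophil production, and Ly6g a surface protein commonly used to identify mouse neutrophils. S100a8 and S100a9 encode the subunits of calprotectin, a calcium and metal binding protein held in large amount in neutrophils and also made by monocytes and stressed epithelium. Lcn2 encodes a binder of iron-carrying siderophores that neutrophils store in granules and that hepatocytes also secrete in the acute phase response, and Il1b encodes interleukin-1 beta, an inflammatory cytokine of myeloid cells.

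RefSeq promoter windows on build GRCm38.p6 were found for 9 of the 10 genes. The 250 bases before the start are shown for Cxcl1, S100a9 and Lcn2, which were lower with Aoah, and for Cxcl2, the neighbouring chemokine gene that was barely detected. They lie at chr5:90890995-90891244 (plus strand) for Cxcl1, chr5:90903649-90903898 (plus strand) for Cxcl2, chr3:90695722-90695971 (minus strand) for S100a9 and chr2:32387740-32387989 (minus strand) for Lcn2. Capitals mark matches to the NF-kB letters in the chemokine genes and to the C/EBP letters in S100a9 and Lcn2.
Cxcl1: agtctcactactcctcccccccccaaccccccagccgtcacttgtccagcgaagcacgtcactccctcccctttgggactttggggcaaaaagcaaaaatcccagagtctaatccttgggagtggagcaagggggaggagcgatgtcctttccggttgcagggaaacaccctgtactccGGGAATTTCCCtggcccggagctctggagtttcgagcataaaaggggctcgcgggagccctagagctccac
Cxcl2: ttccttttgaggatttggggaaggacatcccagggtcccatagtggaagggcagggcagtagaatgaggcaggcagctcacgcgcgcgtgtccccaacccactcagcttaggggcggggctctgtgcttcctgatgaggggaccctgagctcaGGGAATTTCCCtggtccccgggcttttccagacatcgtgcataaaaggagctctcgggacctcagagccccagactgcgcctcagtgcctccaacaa
S100a9: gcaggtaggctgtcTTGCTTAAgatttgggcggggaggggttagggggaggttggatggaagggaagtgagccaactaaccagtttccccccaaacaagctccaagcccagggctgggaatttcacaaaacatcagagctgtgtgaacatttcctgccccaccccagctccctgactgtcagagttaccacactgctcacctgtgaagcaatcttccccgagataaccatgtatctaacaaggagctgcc
Lcn2: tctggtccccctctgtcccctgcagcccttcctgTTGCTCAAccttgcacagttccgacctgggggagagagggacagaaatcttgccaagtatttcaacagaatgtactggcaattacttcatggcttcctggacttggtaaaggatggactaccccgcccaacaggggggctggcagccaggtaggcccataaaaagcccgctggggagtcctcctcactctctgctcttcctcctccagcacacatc

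The letters searched were, for NF-kB, GGGA followed by any 2 bases and then TTCC, with its reverse complement, TTGCNNAA and its reverse complement TTNNGCAA for C/EBP, and TTCNNNGAA, which is its own reverse complement, for Stat. Cxcl1 and Cxcl2 held the same 11 letters GGGAATTTCCC, in which a match on each strand overlaps, from base -71 to -61 before the Cxcl1 start and from -97 to -87 before the Cxcl2 start. The Csf3r window held GGAAGGTCCC from -129 to -120. C/EBP letters stood at -236 to -229 of S100a9, at -216 to -209 of Lcn2 and at -232 to -225 of the first of the Ly6g windows. None of these letters were found for S100a8, Cxcr2 or Il1b, and no window of the 9 genes held the Stat letters. Of the 32851 windows in the table, 1.47% held the NF-kB letters, 10.8% the C/EBP letters and 8.3% the Stat letters. Cxcl1 and Cxcl2 thus share these letters while Cxcl1 was measured at much higher TPM than Cxcl2, and no binding was measured here.

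On the TPM scale, which is per transcript length, the 10 genes fell into a high and a low set. Lcn2 had a median of 469.7 TPM over the 14 tumours (63.1 to 1989), S100a8 a median of 86.3 (22.9 to 440.1), S100a9 a median of 86.9 (24.7 to 437) and Cxcl1 a median of 55.8 (18.4 to 166). S100a8 and S100a9 could not be ordered, since their ranges nearly coincide. Il1b had a median of 1.96 TPM (0.81 to 2.99), Csf3r of 0.795 (0.24 to 2.66), Cxcr2 of 0.33 (0.09 to 1.13), Cxcl2 of 0.325 (0 to 1.11), Ly6g of 0.11 (0 to 0.79) and Cxcl5 of 0.045 (0 to 0.36). Of these 3 chemokine genes, Cxcl1 was the one measured well above 1 TPM, and the genes that define neutrophils best, Ly6g and Cxcr2, were near the floor of the table. Cxcl1 and Cxcl2 are close paralogs, as are the Ly6 genes, and how the authors' counting shared reads between such copies cannot be read from TPM.

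**Figure D1:**
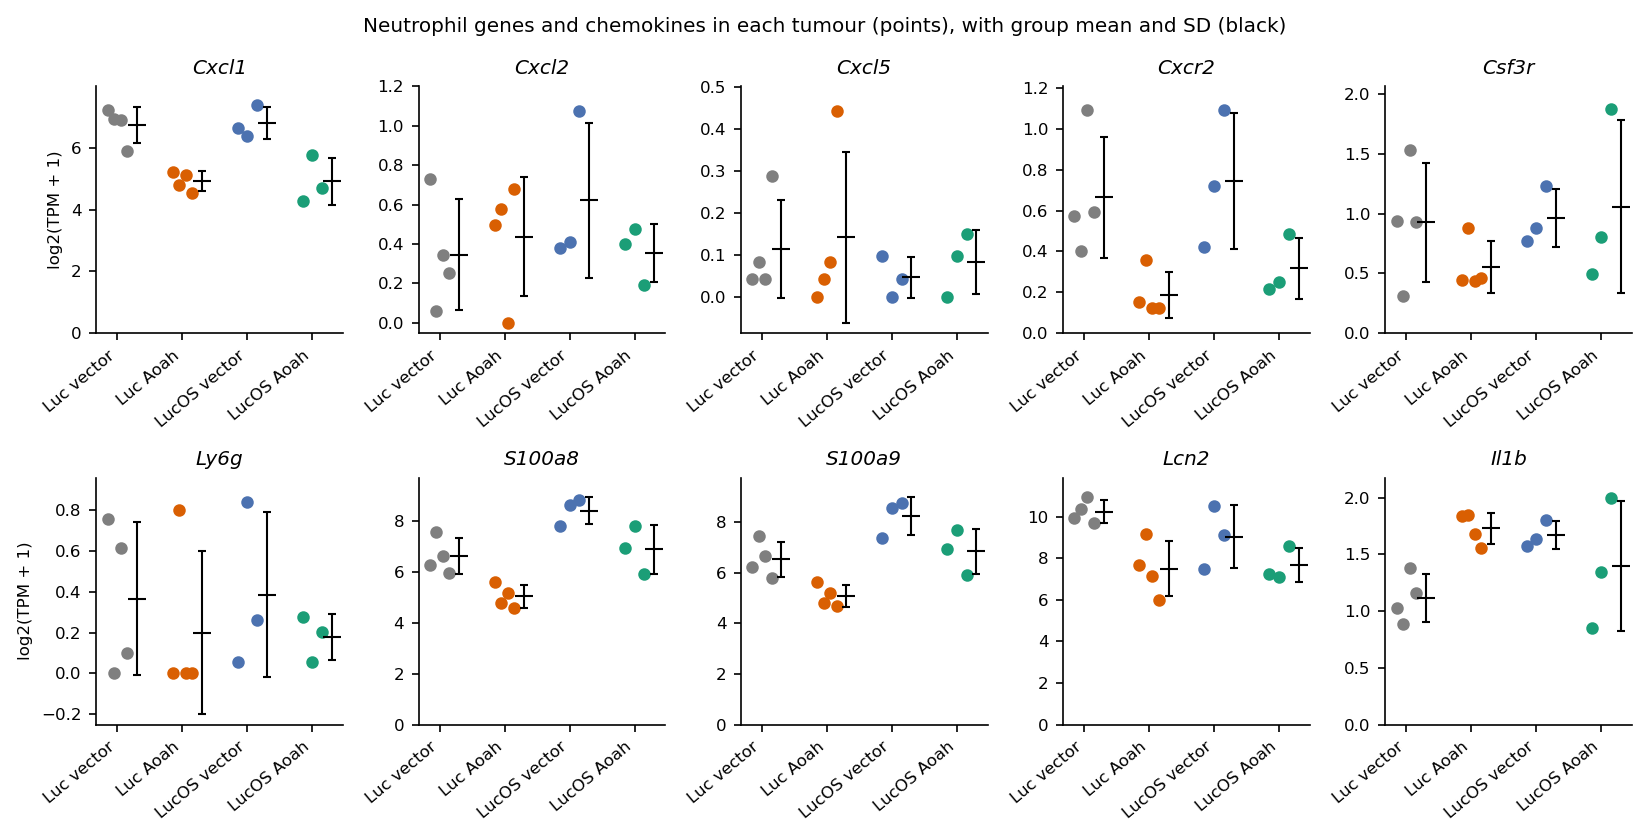
Each panel plots 1 gene, with log2(TPM + 1) on the vertical axis (each panel has its own scale) and the 4 sets of tumours on the horizontal axis. Points are tumours, the black dash is the mean and the bar its SD. Cxcl1, S100a8, S100a9 and Lcn2 of the Luc tumours with Aoah all lie under those with vector, while Il1b lies above. Over the 14 tumours Cxcl2 does not exceed 1.11 TPM, Cxcl5 0.36 TPM and Ly6g 0.79 TPM.

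Facts of the libraries that touch these values are few. Aoah itself, the delivered gene, stood at 284 to 931 TPM in the tumours with Aoah and at 0.74 to 54.8 TPM in those with vector, where Luc vector 1 (18.6 TPM) and Luc vector 3 (54.8 TPM) stood above the rest. From 11478 to 12836 genes reached 1 TPM per tumour. Luc Aoah 3 had 9.28% of its TPM in small noncoding genes (1.06% to 2.37% in the other tumours), and LucOS Aoah 3 had 16.6% in mitochondrial genes (3.41% to 8.45% in the other tumours). Where calls within Luc or within LucOS changed without these tumours, the new count or the gene is given. Sequencing depth is unknown, since TPM does not keep it.

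The chemokine gene Cxcl1 was lower with Aoah in Luc and in LucOS. In Luc tumours 1 to 4 with vector it stood at 149.6, 119.6, 118 and 58.3 TPM, and in those with Aoah at 36.4, 26.4, 33.85 and 22.3 TPM. The sets did not overlap: the lowest vector tumour, Luc vector 4, was above every Aoah tumour. The means were 111 ± 38.2 TPM with vector and 29.7 ± 6.52 TPM with Aoah (SD, n = 4 each), a difference of -1.82 ± 0.34 (SE) in log2(TPM + 1), with a 95% interval from -2.55 to -1.08 and a limma adjusted p of 0.00375. In LucOS tumours 1 to 3 with vector Cxcl1 stood at 98.7, 81.6 and 166 TPM, and with Aoah at 18.4, 53.3 and 24.7 TPM. Again the sets did not overlap, and the means were 115 ± 44.5 and 32.2 ± 18.6 TPM (SD, n = 3 each). The difference was -1.89 ± 0.40 in log2(TPM + 1), with a limma adjusted p of 0.0391. Over both models Cxcl1 differed by -1.85 ± 0.26 (limma adjusted p = 0.000412), the smallest adjusted p of the 6 genes tested. An exact two-sided permutation test with labels exchanged inside each model gave p = 0.00143 for Cxcl1.

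The Cxcl1 call in LucOS was lost under 9 of 16 alternative settings. With all tumours kept, its limma adjusted p was 0.0832 with a common median per tumour, 0.139 with no filter on low values, 0.124 with the replicate number as a block and 0.157 with the LucOS tumours fitted alone. With the block 0 of all 13466 genes passed in LucOS, and with the LucOS tumours alone 0 of 12262 fell. Those fits therefore do not set Cxcl1 apart from other genes. The call was also lost without LucOS vector 1 (limma adjusted p = 0.0862), LucOS vector 3 (0.182), LucOS Aoah 1 (0.169) or LucOS Aoah 3 (0.169), with differences from -1.97 to -1.57. Of all genes, 30 fell without LucOS vector 1, 4 without LucOS vector 3, 2 without LucOS Aoah 1 and 2 without LucOS Aoah 3. In Luc the Cxcl1 call was lost without Luc vector 1 and 3, the vector tumours with the most Aoah, at -1.49 and a limma adjusted p of 0.0913. The difference between the Luc and LucOS effects on Cxcl1 was -0.07, with a 95% interval from -1.19 to 1.05.

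Cxcl2 and Cxcl5 gave no such picture. Cxcl2 stood at 0.66, 0.04, 0.27 and 0.19 TPM in Luc tumours with vector and at 0.41, 0.49, 0 and 0.6 TPM with Aoah. In LucOS it stood at 0.3, 0.33 and 1.11 TPM with vector and at 0.32, 0.39 and 0.14 TPM with Aoah. LucOS vector 3 was the lone tumour above 1 TPM, and the sets overlapped in each model (exact permutation p = 0.634 over both). Cxcl5 did not exceed 0.36 TPM (Luc Aoah 4), was listed at 0 in 3 tumours, and its sets overlapped as well (exact permutation p = 0.646 over both). Ppbp, the gene of another CXCR2 ligand stored in platelets, was counted with the platelet markers. It stood at 1.53, 5.82, 5.98 and 3.4 TPM in Luc tumours with vector and at 0.52, 0.9, 0.48 and 0.55 TPM with Aoah, without overlap, and fell there (-1.58, limma adjusted p = 0.0144). In LucOS the sets of Ppbp values overlapped (-0.23, limma adjusted p = 0.916).

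Cxcr2, the receptor of these chemokines, stood at 0.49, 0.32, 1.13 and 0.51 TPM in Luc tumours with vector and at 0.11, 0.28, 0.09 and 0.09 TPM with Aoah. Those sets did not overlap (exact two-sided permutation p = 0.0286, the smallest that 4 against 4 allows). In LucOS it stood at 0.34, 0.65 and 1.13 TPM with vector and at 0.16, 0.19 and 0.4 TPM with Aoah, where LucOS Aoah 3 lay above LucOS vector 1 (exact p = 0.2; the smallest that 3 against 3 allows is 0.1). Over both models the exact permutation p was 0.00429. In a limma fit without the filter on low values, over 29923 genes, Cxcr2 differed by -0.48 in Luc (adjusted p = 0.117), by -0.43 in LucOS (0.546) and by -0.45 over both (0.0685), so it did not pass the threshold of 0.05.

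Csf3r, the G-CSF receptor gene, stood at 0.92, 0.24, 1.89 and 0.9 TPM in Luc tumours with vector and at 0.36, 0.84, 0.35 and 0.38 TPM with Aoah. In LucOS it stood at 0.71, 0.84 and 1.35 TPM with vector and at 0.41, 0.75 and 2.66 TPM with Aoah, the last of these being LucOS Aoah 3. The sets overlapped in each model, and over both models the difference was -0.14 with a 95% interval from -0.62 to 0.34 (limma adjusted p = 0.683). Ly6g was listed at 0 in Luc vector 2 and in Luc Aoah 1, 3 and 4, and reached its highest values in LucOS vector 2 (0.79 TPM), Luc Aoah 2 (0.74 TPM), Luc vector 1 (0.69 TPM) and Luc vector 3 (0.53 TPM). Its sets overlapped in each model (exact permutation p = 0.341 over both).

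The calgranulin genes S100a8 and S100a9 fell with Aoah in Luc and over both models. S100a8 stood at 75.0, 189, 97.5 and 61.0 TPM in Luc tumours with vector and at 47.6, 25.9, 35.0 and 22.9 TPM with Aoah, with no overlap. The means were 106 ± 57.5 and 32.8 ± 11.1 TPM (SD, n = 4 each), a difference of -1.57 ± 0.41 in log2(TPM + 1) (limma adjusted p = 0.0196). S100a9 stood at 74.1, 174, 99.6 and 54.4 TPM with vector and at 48.8, 27.0, 36.3 and 24.7 TPM with Aoah, and fell by 1.44 on the log2 scale (limma adjusted p = 0.0310). The median of all genes tested also moved in Luc, by -0.24, and after setting every tumour to a common median the Luc values were -1.26 for S100a8 (limma adjusted p = 0.0720) and -1.13 for S100a9 (0.101). Neither call in Luc held under that scaling.

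In LucOS tumours with vector S100a8 stood at 220.35, 386 and 440.1 TPM, and with Aoah at 120.2, 221 and 58.6 TPM. LucOS Aoah 2 reached the level of LucOS vector 1, so the sets overlapped, and the difference of -1.52 did not pass (limma adjusted p = 0.158); without LucOS Aoah 2 it did (-1.98, adjusted p = 0.0471). S100a9 stood at 164, 379 and 437 TPM with vector and at 123, 206 and 58.8 TPM with Aoah, a difference of -1.39 (limma adjusted p = 0.231). Over both models S100a8 fell by 1.55 ± 0.31 on the log2 scale (limma adjusted p = 0.00439, exact permutation p = 0.00286) and S100a9 by 1.42 ± 0.32 (limma adjusted p = 0.00941, exact permutation p = 0.00429). The Luc and LucOS effects differed by 0.05 for S100a8, with a 95% interval from -1.28 to 1.39, and by 0.06 for S100a9.

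On the TPM scale Lcn2 had the widest range of the 10 genes. In Luc tumours with vector it stood at 975, 1301, 1989 and 820.2 TPM, and with Aoah at 205, 581, 141 and 63.1 TPM. The sets did not overlap, though Luc Aoah 2 lay well above its group. Lcn2 fell by 2.72 ± 0.70 on the log2 scale in Luc (limma adjusted p = 0.0217). That call was lost in 5 of 19 alternatives, with limma adjusted p-values up to 0.184. In LucOS Lcn2 stood at 179, 1462 and 555 TPM with vector and at 152, 137 and 384 TPM with Aoah, where LucOS vector 1 lay among the Aoah tumours. That difference was -1.39 with a 95% interval from -3.14 to 0.36 (limma adjusted p = 0.548). Over both models Lcn2 differed by -2.06 ± 0.53 (limma adjusted p = 0.0231, exact permutation p = 0.00714). The call over both was lost in 6 of 24 alternatives, with limma adjusted p-values up to 0.0924. Among them were the fits without LucOS vector 2 (limma adjusted p = 0.0541), LucOS vector 3 (0.0531), LucOS Aoah 1 (0.0502) or LucOS Aoah 2 (0.0618).

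Il1b did not follow the other genes. In Luc tumours with vector it stood at 1.04, 0.85, 1.61 and 1.24 TPM, and with Aoah at 2.58, 2.59, 2.2 and 1.94 TPM, so that every Aoah tumour was above every vector tumour. The difference of 0.61 ± 0.22 missed the threshold (limma adjusted p = 0.0591), and the exact two-sided permutation p was 0.0286. After setting a common median per tumour it was 0.93 (limma adjusted p = 0.00983). In LucOS Il1b stood at 1.98, 2.1 and 2.5 TPM with vector and at 0.81, 1.54 and 2.99 TPM with Aoah, where LucOS Aoah 3 was the highest and LucOS Aoah 1 the lowest of all 14 tumours. That difference was -0.27 (limma adjusted p = 0.766), and the Luc and LucOS effects differed by -0.89 (limma adjusted p = 0.443).

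Counted together in Luc, 4 of the 6 genes tested fell (Cxcl1, S100a8, S100a9 and Lcn2) and 0 rose, against 14.3% of all 13466 genes that fell and 22.2% that passed in either direction. The count dropped to 1 without Luc vector 3 or without Luc Aoah 4, to 2 without Luc Aoah 3, and to 0 without Luc vector 1 and 3 together; without Luc vector 1 alone, S100a9 was lost (adjusted p = 0.0534). Of the 10 genes, 5 lay without overlap below the vector tumours in Luc (the same 4 and Cxcr2) and 1 above them (Il1b), against 9.1% and 11.8% of genes tested. In LucOS 1 of 6 fell (Cxcl1), against 0.215% of genes that fell and 0.965% that passed, and 1 of 10 lay lower without overlap, against 6.07%. Over both models 4 of 6 fell, against 6.68% of genes that fell and 14.7% that passed in either direction, and these 4 genes were again Cxcl1, S100a8, S100a9 and Lcn2. The median difference of the 6 genes was -1.48 over both models, and that of all genes tested -0.14. For the difference of the effects between models the limma count was 0 of 6, against 0.00743% of all genes, and 1 of 6 (Il1b) had an unadjusted p under 0.05, against 10.2% of all genes.

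**Figure D2:**
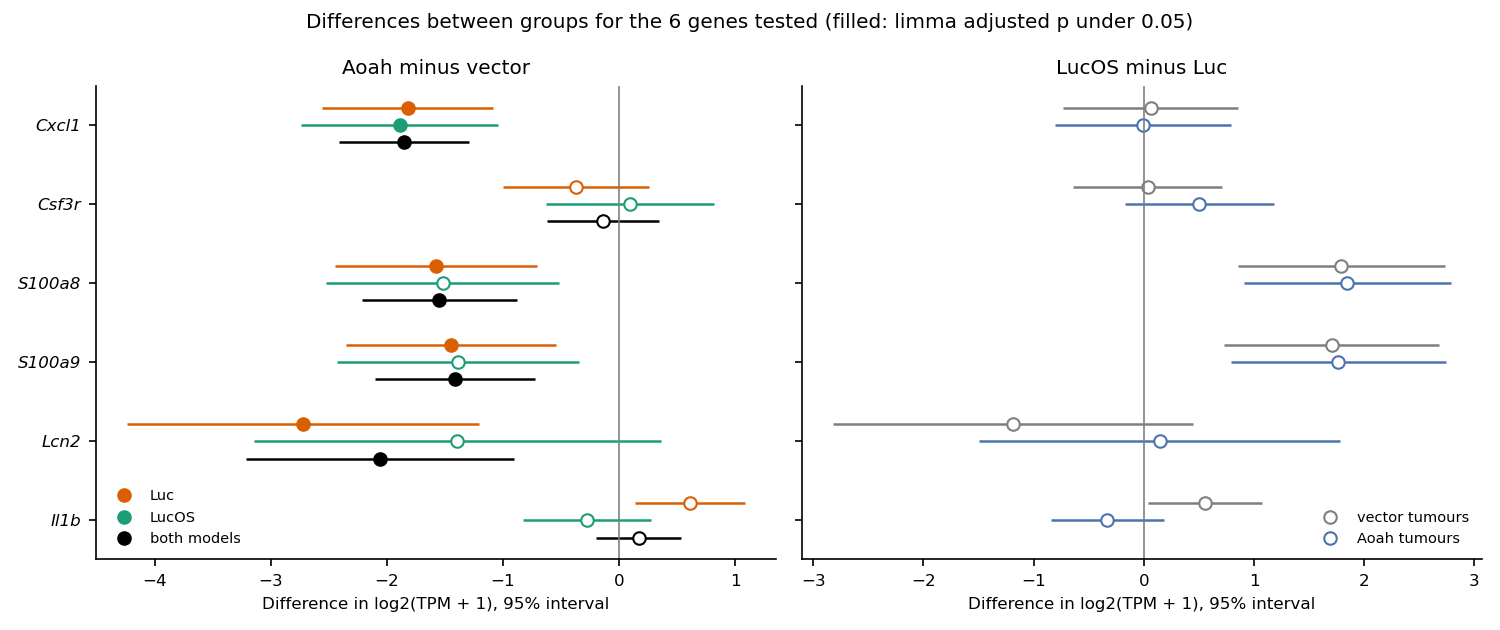
The left panel plots the Aoah minus vector difference in log2(TPM + 1), with its 95% interval, for the 6 genes tested in Luc, in LucOS and over both models, and the right panel the LucOS minus Luc difference in vector tumours and in Aoah tumours. Filled points passed a limma adjusted p of 0.05: Cxcl1 in all 3 rows of the left panel, S100a8, S100a9 and Lcn2 in Luc and over both, and no gene on the right.

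The authors' deposited table of their own comparison gave the same sign for the genes called here. Aoah was at 5.01 in its Luc part and 8.36 in its LucOS part, from which the direction was read. In Luc, the authors' deposited table had Cxcl1 at -1.62 (authors' adjusted p = 9.95e-05), Lcn2 at -2.26 (3.29e-05), Cxcr2 at -1.86 (0.00273), S100a8 at -1.46 (0.00668), S100a9 at -1.33 (0.0127) and Il1b at 1.27 (0.000327). So 6 of the 10 genes passed in the authors' deposited table for Luc, against 31.7% of the genes it gives an adjusted p. In LucOS, the authors' deposited table had Cxcl1 at -1.81 (0.0228), the lone gene of the 10 to pass, against 2.77% of genes, while Cxcr2 stood at -1.51 (0.163), Lcn2 at -1.63 (0.0982), S100a8 at -1.29 (0.169) and S100a9 at -1.23 (0.206). Cxcr2 and Il1b in Luc are thus called in the authors' deposited table and not in the fit on TPM.

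Between the models, S100a8 values lay higher in LucOS than in Luc, but no difference of S100a8 or S100a9 passed in limma among vector or among Aoah tumours. Among vector tumours the lowest LucOS value of S100a8 (220.35 TPM) was above the highest Luc value (189 TPM), and among Aoah tumours the lowest LucOS value (58.6 TPM) was above the highest Luc value (47.6 TPM). The difference of S100a8 was 1.79 ± 0.44 in log2(TPM + 1) among vector tumours (limma adjusted p = 0.344, exact permutation p = 0.0571) and 1.85 ± 0.44 among Aoah tumours (limma adjusted p = 0.230, exact permutation p = 0.0286). S100a9 differed by 1.71 among vector tumours, where LucOS vector 1 lay below Luc vector 2, and by 1.76 among Aoah tumours. In neither comparison did any of the 6 genes pass in limma; 3 (S100a8, S100a9 and Il1b) among vector tumours and 2 (S100a8 and S100a9) among Aoah tumours had an unadjusted p under 0.05, against 14.2% and 7.01% of all genes. The share of all genes that passed was 0% and 0.0817%. Without overlap higher in LucOS were 2 of the 10 genes among vector tumours (S100a8 and Il1b, against 2.12% of genes tested) and 2 among Aoah tumours (S100a8 and S100a9, against 2.2%).

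Averaged over vector and Aoah tumours, a contrast added after these values were seen, S100a8 was higher in LucOS by 1.82 ± 0.31 (limma adjusted p = 0.0474), and 1 of the 6 genes passed, against 0.0149% of all genes that were higher and 0.0743% that passed. That call was lost in 17 of the 23 alternatives tried, among them leaving out any of Luc vector 1, 3 or 4, any of the Luc Aoah tumours, LucOS vector 2 or 3, or LucOS Aoah 1 or 2, with adjusted p-values up to 0.201 and differences from 1.59 to 2.09. S100a9 differed by 1.73 ± 0.32 (limma adjusted p = 0.0660), and passed without Luc vector 2 (0.0455) or without LucOS vector 1 (0.0344). The Cxcl1 level did not follow the antigen: its difference was 0.03, with a 95% interval from -0.53 to 0.59. For Lcn2 it was -0.52, with an interval from -1.68 to 0.64. The ratio of Cxcl1 to S100a8 TPM ran from 0.634 to 1.99 in Luc tumours with vector and from 0.765 to 1.02 in Luc tumours with Aoah. It ran from 0.211 to 0.448 in LucOS tumours with vector and from 0.153 to 0.422 in those with Aoah.

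The 10 genes did not vary as 1 block across tumours. The ratio of S100a8 to S100a9 TPM stayed between 0.927 and 1.34 in all 14 tumours, with LucOS vector 1 the highest. The ratio of S100a8 to Csf3r TPM ran from 22.03 in LucOS Aoah 3 to 786 in Luc vector 2, so the tumour with the most S100a8 in the Luc model was the one with the least Csf3r of all 14. The ratio of Lcn2 to S100a8 TPM ran from 0.617 in LucOS Aoah 2 to 22.5 in Luc Aoah 2. In Luc tumours with vector that ratio was 6.89 to 20.4, and in LucOS tumours with vector 0.813 to 3.79.

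The likeness of patterns was measured by Pearson's r of log2(TPM + 1) over the 14 tumours after subtracting each group's mean, as a description. The genes most like S100a8 were S100a9 (0.985), Calml4 (0.861) and Spcs2 (0.851). Those most like Lcn2 were Lrg1 (0.989), which encodes a secreted leucine-rich glycoprotein of the acute phase, the metallothionein gene Mt2 (0.966) and the acute phase gene Orm2 (0.965). Those most like Il1b were Csf3r (0.906), the transcription factor gene Fli1 (0.896) and Myo1g (0.892), and those most like Cxcl1 were Spink1 (0.848), Hebp2 (0.824) and Cd9 (0.809). These tumours share 1 set of libraries, and the genes were picked as the highest of 13466 after predicted genes (Gm and Rik symbols) were left out.

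**Figure D3:**
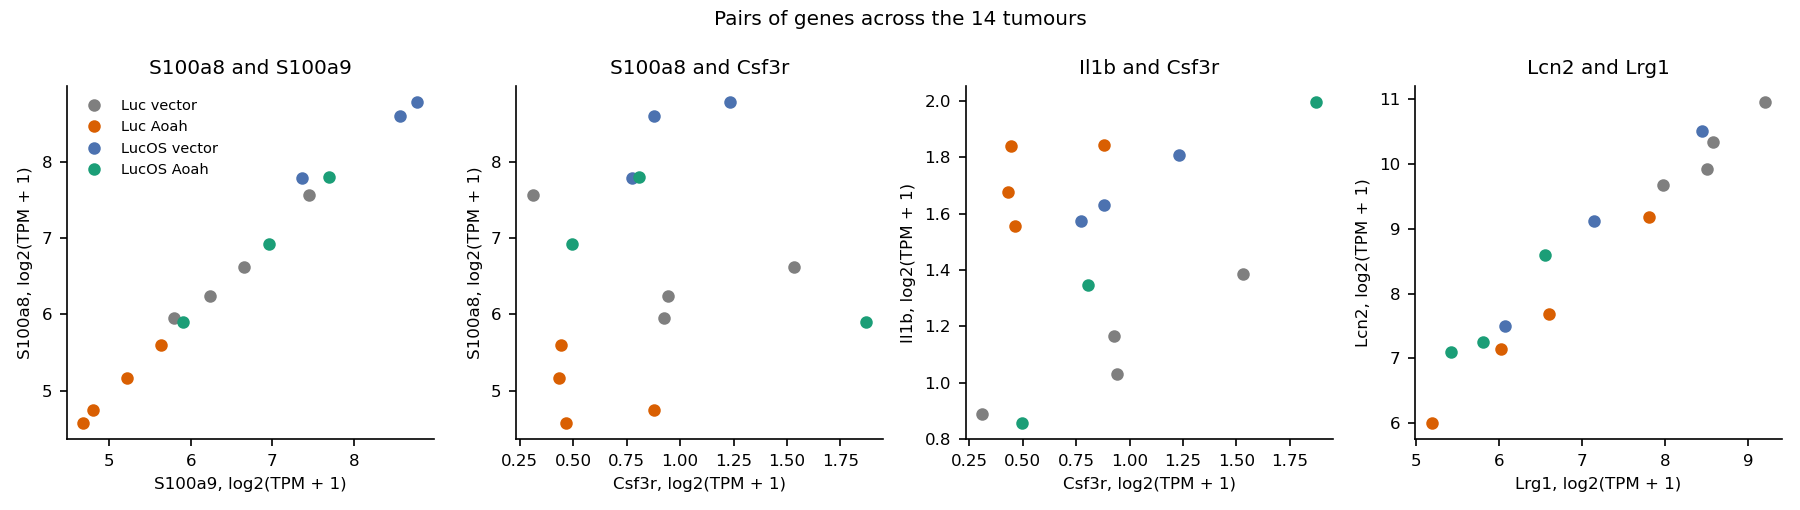
Each panel plots 1 pair of genes over the 14 tumours, both axes in log2(TPM + 1), with tumours coloured by set. S100a8 and S100a9, and Lcn2 and Lrg1, lie close to a line, whereas S100a8 and Csf3r, and Il1b and Csf3r, are spread across the panel over the 14 tumours.

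The levels of other neutrophil markers set the context. In bulk tumour RNA, fewer cells of a type and less RNA per cell cannot be told apart. Of the 11 neutrophil markers, S100a8 and S100a9 reached 440.1 and 437 TPM, whereas Retnlg reached 12.6, Il1r2 6.21, Fpr1 3.54, Mmp8 3.42, Csf3r 2.66, Mmp9 1.23, Cxcr2 1.13, Cd177 0.92 and Ly6g 0.79 TPM. The 9 markers without the calgranulin genes summed to 5.89 to 23.9 TPM in Luc tumours with vector, 4.18 to 7.41 TPM in Luc tumours with Aoah, 11.7 to 27.1 TPM in LucOS tumours with vector and 5.29 to 13.5 TPM in LucOS tumours with Aoah. These 9 markers did not all move the same way. In the authors' deposited comparison for Luc, Fpr1 was higher with Aoah (1.42, authors' adjusted p = 0.00725), though its TPM values overlapped between the sets. Retnlg (-2.60), Mmp8 (-3.19), Il1r2 (-2.22), Cd177 (-2.14), Cxcr2 (-1.86) and Mmp9 (-1.76) were lower there and passed, while Csf3r and Ly6g did not pass. Ly6g was listed at 0 in 4 tumours and Cd177 in 1. The part of these cells in the S100a8 and S100a9 differences was not tested.

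Among 22 other neutrophil genes, 14 were tested and over both models 3 fell and 1 rose, against 6.68% and 8.02% of all genes, with a list median of -0.12 beside -0.14 for all genes. In Luc 7 of the 14 differences were above 0. In LucOS 0 of the 14 passed, against 0.965% of all genes, and 4 differences were above 0. The genes that fell over both models were Retnlg, a resistin-like gene of mature neutrophils (-1.71, limma adjusted p = 0.00127), the collagenase gene Mmp8 (-1.13) and the decoy receptor gene Il1r2 (-1.10). Retnlg stood at 1.87 to 10.9 TPM in Luc tumours with vector and at 0.61 to 1.45 TPM with Aoah, and at 6.11 to 12.6 and 1.54 to 4.01 TPM in LucOS. Wfdc21, which encodes a secreted protein with a whey acidic protein domain, went the other way (1.40). It stood at 109 to 265 TPM in Luc tumours with vector and at 558 to 927 TPM with Aoah, far above the other genes of the list. Of 12 granule and precursor genes, 10 were tested, 3 fell and 0 rose over both models (list median -0.97). They were the chitinase-like gene Chil3 (-2.17) and the serine protease genes Prtn3 (-2.01) and Ctsg (-0.99), while Mpo, the myeloperoxidase gene, was at -1.26 (limma adjusted p = 0.0528). In Luc 6 of the 10 fell, against 14.3% of all genes. In LucOS 0 of the 10 passed (list median -0.72), and the sets of Ctsg and of Mpo values overlapped there. Prtn3 reached 109 TPM in Luc tumours with vector, well above Ly6g or Cxcr2, and it is also made by immature myeloid cells.

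Counts and changes in this paragraph are over both models unless a model is named. There 8.02% of all genes rose and 6.68% fell, with a median of -0.14. Among 12 other chemokines and receptors acting on neutrophils, 8 were tested (list median 0.38). Cxcr4 (0.93), Ccl4 (1.06) and Cxcl12 (1.05) rose while Ccl6 (-0.77) fell. Cxcl12 and its receptor Cxcr4 hold neutrophils in the marrow. Of 12 upstream growth factors and cytokines, 6 were tested, 3 fell and 0 rose (list median -0.63). The genes that fell were Il6 (-2.79, limma adjusted p = 0.0386), Kitl (-0.77) and the interleukin-17 receptor gene Il17ra (-0.84). Il6 stood at 6.78 to 37.2 TPM in Luc tumours with vector and at 0.47 to 3.74 TPM with Aoah, and in LucOS reached 141.5 TPM in LucOS vector 3. The G-CSF gene Csf3 and the genes Csf2, Il17f, Il23a and Tnf did not pass the filter, and Il17a was not analysed here. Of 15 interleukin-1 pathway genes, 13 were tested, 4 rose and 3 fell (list median -0.12). The receptor genes Il1r1 (-1.41) and Il1r2 and the antagonist gene Il1rn (-1.04) fell, and Il18 (0.59) was among those that rose. Of 13 genes of NF-kB feedback and C/EBP factors, 12 were tested (list median -0.22). Icam1 (-0.88), Bcl3 (-0.89) and Tnfaip2 (-0.64) fell, whereas Cebpd (-0.58) did not pass (limma adjusted p = 0.0587). In Luc 5 of the 12 fell, against 14.3% of all genes, and 0 differences were above 0 (list median -0.66). In LucOS 8 of the 12 differences were above 0 (list median 0.19 beside -0.02 for all genes). Bcl3 there stood at 5.96 to 14.3 TPM with vector and at 6.6 to 13.7 TPM with Aoah. Of the lists in this paragraph 0 genes passed in LucOS, against 0.965% of all genes.

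Beside Lcn2 stand the acute phase genes that hepatocytes make. Of these 17 genes, all tested, 7 fell and 0 rose over both models, against 6.68% and 8.02% of all genes. The list median was -0.67 beside -0.14 for all genes, and 4 of the 17 differences were above 0. In Luc 6 of the 17 fell and 5 differences were above 0. In LucOS 2 fell and 2 differences were above 0. Of all genes 14.3% fell in Luc and 0.215% in LucOS. Socs3, Saa3, Itih3 and Lbp are named below as the genes of smallest p over both models. The summed level of the list overlapped between the sets. It was 14357.5 to 22223 TPM in Luc tumours with vector and 9023 to 24765 TPM with Aoah, and 8655 to 48008.5 and 9659 to 15992 TPM in LucOS. Socs3, the feedback inhibitor of cytokine signalling, stood at 21.7 to 33.5 TPM in Luc tumours with vector and at 1.46 to 3.79 TPM with Aoah (-2.38 over both models). Saa3, a serum amyloid gene, fell by 1.27 on the log2 scale, Itih3 by 1.24 and the lipopolysaccharide binding protein gene Lbp by 1.36. In Luc tumours with vector Lrg1, the gene nearest to Lcn2, stood at 249.6 to 589 TPM, and with Aoah at 35.5 to 222 TPM. Most hepatocyte markers went the other way: 6 of 8 differences were above 0, 4 rose and 0 fell over both models, against 8.02% and 6.68% of all genes. Their summed level was 5165 to 7234 TPM in Luc tumours with vector and 6955 to 23992 TPM with Aoah, and 3149 to 7667 and 8220 to 18019 TPM in LucOS. Alb made up much of these sums, with 1906 to 3268 TPM in Luc tumours with vector and 2498 to 13334 TPM with Aoah. None of the 4 genes of Lcn2 receptors and partners passed the filter. How much of Lcn2 came from hepatocytes was not tested.

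Of 12 S100 genes other than the calgranulin pair, 8 were tested: 5 rose, 0 fell and 3 did not pass over both models, with a list median of 1.04. Of all genes 8.02% rose and 6.68% fell over both models. In LucOS 0 of the 8 passed, against 0.965% of all genes. There 7 of the 8 differences were above 0, with a list median of 0.85 beside -0.02 for all genes. S100a10 stood at 71.4 to 119 TPM in Luc tumours with vector and at 429.7 to 511 TPM with Aoah (1.83, limma adjusted p = 0.000136), and S100a1 (1.35), S100a13 (1.05) and S100a16 (1.04) rose too. Of 5 receptor genes of S100a8 and S100a9, 3 were tested: Bsg fell (-0.50), while Tlr4 (0.30, limma adjusted p = 0.215) and Cd36 (0.31, 0.376) did not pass. Monocyte and macrophage markers had 4 rises and 1 fall among 17 tested over both models. Lyz2 (1.44), Ly6c2 (1.13) and Timd4 (0.96) were higher and Cd14, the lipopolysaccharide co-receptor gene, was lower (-1.92). In Luc 5 of these markers rose and 1 fell, and in LucOS 0 passed, against 22.2% and 0.965% of all genes that passed. The summed level of these markers was 325 to 522 TPM in Luc tumours with vector and 642 to 701 TPM with Aoah. In LucOS it was 341 to 675 and 497 to 1381 TPM. T cell markers rose in 7 of 7 cases over both models, in 4 of 7 in Luc and in 2 of 7 in LucOS. All 7 differences were above 0 in each model. The summed T cell markers stood at 4.75 to 14.4 TPM in Luc tumours with vector and at 40.4 to 72.2 TPM with Aoah. In LucOS they stood at 11.4 to 29.8 TPM with vector and at 46.7 to 129 TPM with Aoah. Of the eosinophil, basophil and mast cell markers 1 of 8 was tested (Kit), and of the platelet and erythroid markers 7 of 8, and in neither list did a gene pass over both models. The part of any of these cells in the member differences was not tested.

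**Figure D4:**
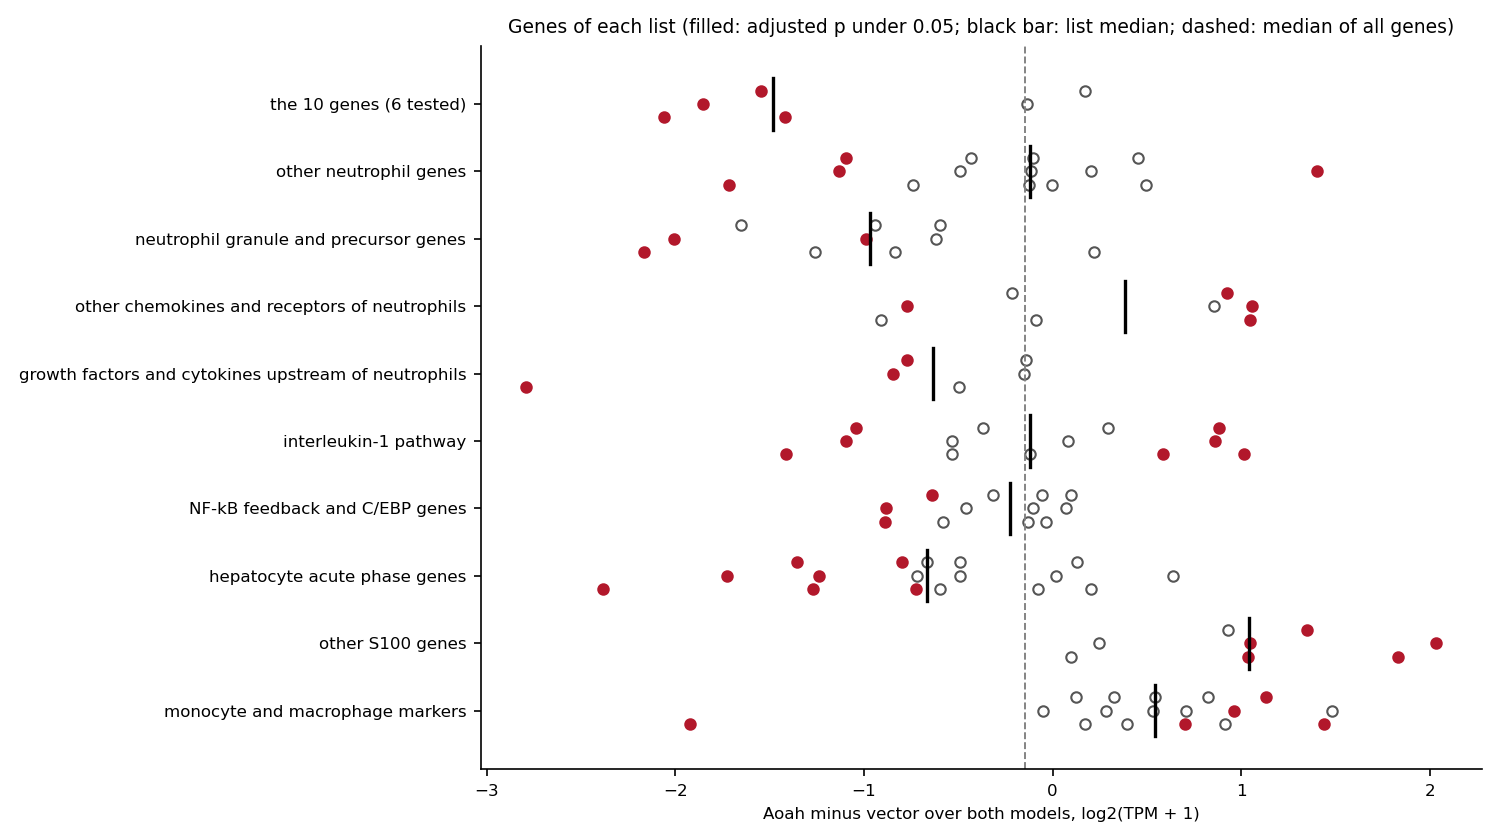
Each point is a gene, placed on the horizontal axis by its Aoah minus vector difference over both models in log2(TPM + 1), in 1 row per list; filled points passed a limma adjusted p of 0.05, the black bar is the list median and the dashed line the median of all genes (-0.14). Of the 6 tested genes of the first row 4 are filled, all left of the line, while the filled S100 genes lie to its right and the interleukin-1 pathway has filled genes on either side.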

How the data were processed

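Bulk RNA of 14 tumours was analysed, grouped by the labels. RNA was enriched with poly-T beads and primed with random hexamers, per the labels' protocols, which name both directional and non-directional libraries. Overlapping antisense partners may therefore share reads. RSEM, DESeq2 and build mm39 are listed by the submitters' processing notes, without versions, and an aligner was not given in the sources used here. Expression was deposited by the authors as log2 values of TPM plus 1, from which TPM was recovered. For each model the authors also deposited their own comparison, from which log2 fold changes and p-values were copied by Ensembl identifier, named through GENCODE M21, which also gave the gene classes. Depth per sample is unknown, so no counting interval could be set and no count test was run.

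Values of log2(TPM + 1) were fitted with limma 3.58.1 in R 4.3.3, with a mean per group over all 14 tumours, variances moderated with trend and robust settings, over genes that reached 1 TPM in 3 samples or more. P-values were Benjamini-Hochberg adjusted over 13466 genes, with a threshold of 0.05; adjusted p-values are from this fit unless the authors' table is named. Differences on this scale understate those of low genes. Single genes were also compared with exact two-sided permutation tests, unadjusted. The fit was tested on simulated data. Promoter windows came from RefSeq on GRCm38.p6, not the build of the files, and serve for sequence alone.

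The 10 genes and the 15 lists were chosen with earlier results of these data known. All 10 are named, with at most the 4 genes of smallest p over both models per list and the 3 genes nearest to Cxcl1, S100a8, Lcn2 and Il1b; S100a9, Csf3r, Il1r2, Lrg1 and other repeats fall under more than 1 part of this rule. The MiXCR table was not used here. Alternatives were other pseudocounts and filters, no trend, a common median, rescaled TPM, a replicate block, fewer groups and tumours left out.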

Additional observations from a re-analysis of the deposited data

Results flagged for a closer look

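Among the 10 genes, the groups of 4 tumours gave 20 sets that could be examined for a tumour far from the other 3, and 4 sets held such a tumour. Chance flags about 1 in 20 where values are normally distributed. That rate need not hold for values near 0, and where the other 3 tumours are at 0 any value above 0 is flagged. In Luc tumours with vector, Cxcl5 stood at 0.22 TPM in Luc vector 4, against 0.03 to 0.06 TPM in the others. In Luc tumours with Aoah, Luc Aoah 2 stood apart for 3 genes: Cxcr2 at 0.28 TPM against 0.09 to 0.11 TPM, Csf3r at 0.84 TPM against 0.35 to 0.38 TPM, and Ly6g at 0.74 TPM against 0 in the other 3. The same tumour had the highest Lcn2 of its group (581 TPM) and the next to lowest S100a8 (25.9 TPM). All 4 values lie under 1 TPM.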

How the results depend on the processing

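Over both models, 3 or 4 of the genes stayed called under each of the 24 alternatives: Cxcl1, S100a8 and S100a9 in 24 of 24, and Lcn2 in 18 of 24. In Luc the count of 4 became 2 with no filter on low values, 2 with the replicate block, 0 without Luc vector 1 and 3 together, and 1 to 4 with a single tumour left out. With a common median per tumour it became 3, of which 2 were lower (Cxcl1 and Lcn2) and 1 higher (Il1b), while S100a8 (adjusted p = 0.0720) and S100a9 (0.101) were lost. In LucOS the count of 1 became 0 with no filter, 0 with a common median per tumour, 0 with the replicate block, 0 with the LucOS tumours fitted alone, 0 without Luc Aoah 3 and LucOS Aoah 3 together (an alternative chosen after seeing the data), and 0 to 2 with a single tumour left out. The calls over all genes changed too. In Luc 1920 of 13466 genes fell in the main fit, 575 of 29923 with no filter and 182 of 13466 with the replicate block. Without Luc vector 1 and 3 together 90 of 13243 fell. In LucOS 0 of 13466 genes passed with the replicate block, and with the LucOS tumours fitted alone 6 of 12262 rose and 0 fell. The cause of these changes was not tested, except that no filter adjusts over 29923 genes and fewer tumours leave fewer degrees of freedom. No call changed direction. Replicate numbers did not pair the tumours: same-numbered tumours correlated at -0.55 to 0.10 in their deviations over genes, and 1 of 7 correlated best with its own number. The block left 4 genes called over both models; it was not run for LucOS against Luc, where a block lies inside a model. The depth is unknown, and 4 of the 10 genes did not pass the filter on low values.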
